A study of Mus musculus with 16 samples.

Results

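Mitochondrial ribosomal protein genes were compared between Tim-4+ and Tim-4- tumor-associated macrophages (TAMs) of the mouse peritoneal cavity. Members were the protein-coding genes whose symbol begins with Mrpl or Mrps followed by a digit. There were 78 of them among the 55604 genes listed, 49 Mrpl (named for the large subunit) and 29 Mrps (named for the small subunit). RNA came from 8 libraries, 4 of each subset, in pairs numbered 793, 784, 783 and 779. All cells came from C57BL/6 mice carrying ID8, a mouse ovarian cancer cell line grown in the peritoneum, with no drug treatment named. According to the methods the mice of the study were female and 6 to 8 weeks old. A figure legend puts the sorting of these TAMs at 6 to 7 weeks in tumor-bearing mice. After a density gradient to remove most tumor cells, Tim-4+ TAMs were captured with anti-Tim-4 beads, and Tim-4- TAMs were then taken from the Tim-4- remainder with anti-F4/80 beads. The labels do not say whether a number stands for 1 animal or a pool.

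Mitochondria carry their own ribosomes, which translate only the few proteins encoded by mitochondrial DNA (mtDNA), all of them components of oxidative phosphorylation (OXPHOS). The ribosomal RNAs (rRNAs) are transcribed from mtDNA, whereas every ribosomal protein is encoded in the nucleus, made in the cytosol and imported. Some of these proteins descend from bacterial ribosomal proteins, and others are found only in mitochondrial ribosomes. Peritoneal resident macrophages, which carry Tim-4, are known for active mitochondrial respiration, and the study asked whether the 2 TAM subsets differ in metabolism.

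Timd4, which encodes Tim-4, checked the sort. It had 1148 ± 498 CPM (counts relative to the library total scaled by TMM factors, mean ± SD, n = 4, as for all such values) in Tim-4+ and 30.1 ± 37.5 CPM in Tim-4- TAMs. Macrophage markers were present in all libraries, with summed levels of 9822 to 11582 CPM over 8 genes in Tim-4+ and 5214 to 7397 CPM in Tim-4- TAMs. The 8 genes did not move together, with log2 fold changes from -1.09 to 1.34, 6 above 0 and 2 below. The 9 epithelial and mesothelial markers, keratins and mesothelin among them, summed to 110 to 406 CPM in Tim-4+ and 437 to 1977 CPM in Tim-4- TAMs, and none was at 0 in either group. All 9 were called lower in Tim-4+ TAMs by edgeR's quasi-likelihood test, beside 8.43% of all tested genes. That count was 7 without pair 793 or 779, 1 without pair 784, 1 without the pair block and 3 without the count filter, with medians of the log2 fold change from -2.59 to -1.98 with 1 pair left out. The part of these other cells in the values below was not tested. In bulk RNA, fewer cells of a type and less RNA per cell cannot be told apart.

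Of the 78 members, 75 passed the count filter and were tested, 48 Mrpl and 27 Mrps. Few of them passed the test. With the pair as a block, edgeR's quasi-likelihood test called 2 Mrpl genes, Mrpl42 and Mrpl52, and 2 Mrps genes, Mrps15 and Mrps2, higher in Tim-4+ TAMs (Benjamini-Hochberg adjusted p under 0.05 over all 16861 tested genes). That is 5.33% of the tested members, beside 8.97% of all tested genes called higher. No member was called lower, beside 8.43% of all genes. At an unadjusted p under 0.05 the same edgeR test gave 1 lower member, Mrpl18, and 10 higher ones, beside 16.9% and 16.8% of all genes. DESeq2 called 0 members lower and 5 higher, beside 13.8% and 13.1% of all genes.

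The log2 fold changes of the members were narrowly spread around 0. In Mrpl genes they ran from -0.39 to 0.57 with a median of 0.00, 25 of 48 above 0, and in Mrps genes from -0.28 to 0.78 with a median of 0.06, 15 of 27 above 0. The median over all tested genes was 0.00. The median size of the change, in either direction, was 0.11 on the log2 scale in members and 0.33 in all tested genes, while the median standard error (SE) was 0.13 and 0.20. For 54 of the 75 members (72.0%) the whole 95% interval of the fold change lay within 1.5-fold either way, as it did for 32.2% of all tested genes, and for 74 of 75 it lay within 2-fold. Mrps15 was the exception. For those 54 genes a mean difference larger than 1.5-fold is outside the interval. The interval is for the mean over these 4 pairs, and a single pair can lie outside it. Pair 779 did so for Mrpl57, with a log2 ratio of -0.61 and an interval from -0.41 to 0.41. Narrow intervals were not particular to the members. They lay within 1.5-fold for 13 of 18 mitochondrial translation factors and 49 of 72 nuclear OXPHOS genes, and for 12 of 26 mitochondrial ribosome assembly genes. The filter admitted genes from 10 counts in 4 libraries, whereas every tested member had at least 98 counts in each library. No share of all genes matched for level was taken.

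**Figure D1:**
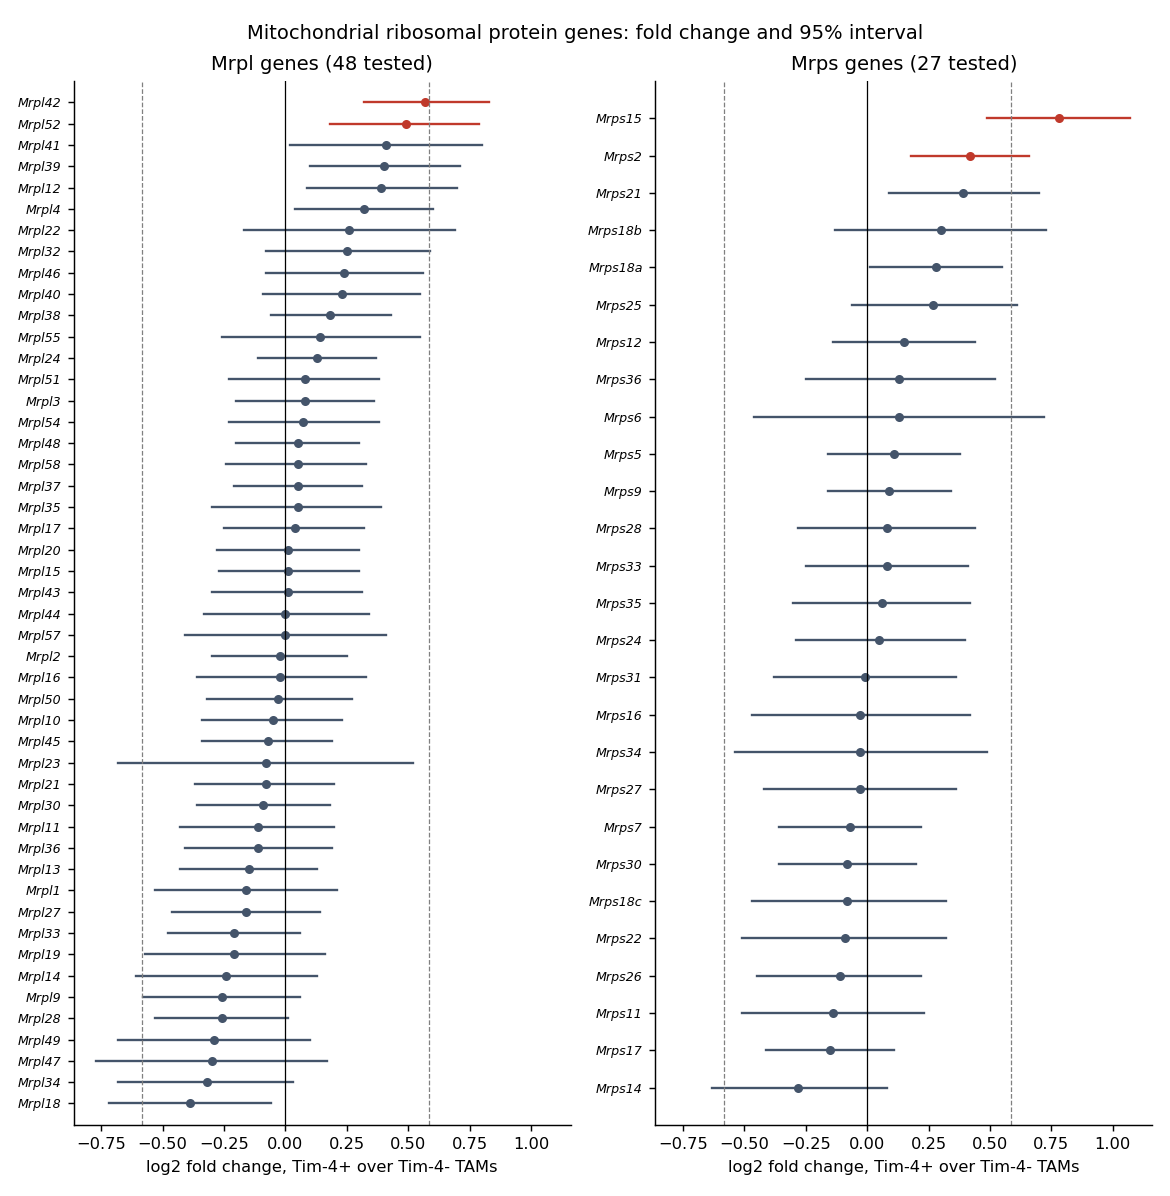
Log2 fold change of each tested member, Tim-4+ over Tim-4- TAMs, with its 95% interval (horizontal lines), for 48 Mrpl genes (left) and 27 Mrps genes (right), ordered by fold change; dashed lines mark 1.5-fold either way and red marks an adjusted p under 0.05. Most intervals cross 0 and stay between the dashed lines, and the 4 red genes all lie to the right of 0.

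Promoters of the 4 genes that rose are shown for a look at what they share, with that of Mrps12, which has a head-to-head neighbor (described with the core members). Each is the 250 bases before the RefSeq start (GRCm38.p6), 5′ to 3′ on the strand of the gene, with matches to 5 motifs in capitals. The motifs, searched on both strands, were GCGCATGC for NRF1, CCGGAAGT for ETS factors, AAGATGGC for YY1, CACGTG (E-box) and CCAAT, none of which contains another.
Mrps15, chr4:126046678-126046927, plus strand: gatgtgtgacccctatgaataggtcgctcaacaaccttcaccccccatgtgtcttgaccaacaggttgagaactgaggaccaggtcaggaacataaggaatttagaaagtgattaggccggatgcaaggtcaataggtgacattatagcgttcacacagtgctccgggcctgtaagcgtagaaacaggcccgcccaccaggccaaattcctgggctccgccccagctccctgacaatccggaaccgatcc
Mrpl42, chr10:95501950-95502199, minus strand: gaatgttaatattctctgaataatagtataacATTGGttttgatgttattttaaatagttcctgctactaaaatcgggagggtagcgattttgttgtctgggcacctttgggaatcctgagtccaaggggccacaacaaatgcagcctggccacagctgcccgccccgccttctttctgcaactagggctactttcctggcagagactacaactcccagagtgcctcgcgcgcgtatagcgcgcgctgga
Mrps2, chr2:28467816-28468065, plus strand: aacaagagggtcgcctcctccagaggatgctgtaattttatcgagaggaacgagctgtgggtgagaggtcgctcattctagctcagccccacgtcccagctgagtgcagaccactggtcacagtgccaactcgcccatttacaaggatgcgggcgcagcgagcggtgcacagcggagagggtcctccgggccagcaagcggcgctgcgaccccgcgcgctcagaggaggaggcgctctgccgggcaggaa
Mrpl52, chr14:54426659-54426908, plus strand: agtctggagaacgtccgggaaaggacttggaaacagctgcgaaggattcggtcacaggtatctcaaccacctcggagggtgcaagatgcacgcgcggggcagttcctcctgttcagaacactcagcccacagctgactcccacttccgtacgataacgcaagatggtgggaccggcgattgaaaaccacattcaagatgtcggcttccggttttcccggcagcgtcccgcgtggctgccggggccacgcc
Mrps12, chr7:28741822-28742071, minus strand: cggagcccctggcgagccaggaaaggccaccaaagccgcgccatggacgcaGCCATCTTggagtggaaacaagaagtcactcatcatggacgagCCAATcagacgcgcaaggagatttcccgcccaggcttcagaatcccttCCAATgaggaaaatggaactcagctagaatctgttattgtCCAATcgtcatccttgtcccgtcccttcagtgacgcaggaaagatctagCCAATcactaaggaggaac
In these windows Mrps15, Mrps2 and Mrpl52 had no match, Mrpl42 had 1 CCAAT on the reverse strand, and Mrps12 had 4 CCAAT and 1 YY1 motif. No motif was common to the 4 genes that rose.

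Over the longer window of 250 bases before to 50 after the start, promoters of 69 members were in the RefSeq table. The YY1 motif was present in 12 of them (17.4%, 6 Mrpl and 6 Mrps), beside 2.88% of all 27025 promoters. The ETS motif was present in 11 (15.9%, 4.0% of all) and the NRF1 motif in 8 (11.6%, 2.80% of all), 7 of which were Mrpl genes. The E-box was found in 5 (7.25%, 7.24% of all) and CCAAT in 27 (39.1%, 37.9% of all). NRF1, ETS family and YY1 factors are known regulators of nuclear genes for mitochondrial proteins, and the matches are letters in a window, not measured binding sites. The 27025 promoters were not matched to the members for base content or expression. Whether the higher shares are particular to this family was not tested.

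Mrps15, a small subunit protein of bacterial descent that binds the rRNA of the subunit's platform, had the largest change of all members. It read 56.4, 57.5, 41.6 and 55.5 CPM in Tim-4+ TAMs of pairs 793, 784, 783 and 779, and 31.5, 26.4, 27.2 and 38.0 CPM in Tim-4- TAMs of the same pairs. The groups did not overlap, although the Tim-4+ library of pair 783 was well below the other 3. The log2 fold change was 0.78 (SE 0.13, 1.72-fold, adjusted p = 0.00990 by edgeR). Without pair 784 it was 0.66 with an adjusted p of 0.0613.

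Mrpl42, a protein found only in mitochondrial ribosomes, read 51.7, 39.8, 41.4 and 46.8 CPM in Tim-4+ and 32.0, 24.1, 29.2 and 35.9 CPM in Tim-4- TAMs, in the same order of pairs. All 4 Tim-4+ libraries were above all 4 Tim-4- libraries. The log2 fold change was 0.57 (SE 0.11, 1.49-fold, adjusted p = 0.0146 by edgeR). The adjusted p was 0.0640 without pair 793 and 0.0779 without pair 784.

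Mrps2, of bacterial descent, read 33.3, 42.8, 28.4 and 25.9 CPM in Tim-4+ and 25.9, 32.2, 20.1 and 19.7 CPM in Tim-4- TAMs. The groups overlapped, because pair 784 was high and pair 779 low in both subsets, but the difference within pairs was even, at log2 ratios of 0.36, 0.41, 0.50 and 0.39. The fitted log2 fold change was 0.42 (SE 0.10, 1.34-fold, adjusted p = 0.0316 by edgeR). Leaving out any 1 pair took the adjusted p to between 0.0886 and 0.108.

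Mrpl52, another protein particular to mitochondrial ribosomes, read 31.3, 55.2, 29.5 and 29.1 CPM in Tim-4+ and 21.8, 30.7, 22.8 and 25.3 CPM in Tim-4- TAMs. Pair 784 held the highest library of each group, its Tim-4- library was above 2 Tim-4+ libraries, and so the groups overlapped. The log2 fold change was 0.49 (SE 0.13, 1.40-fold, adjusted p = 0.0417 by edgeR). It was 0.36 with an adjusted p of 0.153 without pair 784, and the adjusted p was 0.125 without pair 793 and 0.0669 without pair 779.

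**Figure D2:**
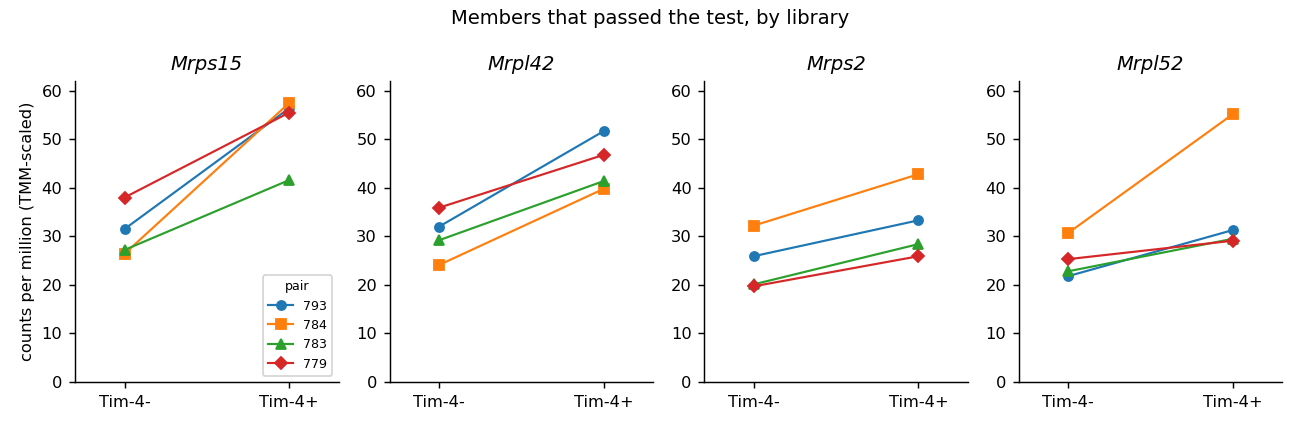
TMM-scaled CPM of the 4 members that passed the test in each of the 8 libraries (points), with lines joining the Tim-4- and Tim-4+ libraries of a pair. All lines rise from Tim-4- to Tim-4+; the groups are apart for Mrps15 and Mrpl42 and overlap for Mrps2 and Mrpl52, where pair 784 is highest.

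The groups did not overlap for 4 members with the higher values in Tim-4+ TAMs, beside 6.84% of all tested genes, and for 1 with the lower values, beside 5.92%. Mrps15 and Mrpl42 were among the 4. Mrpl39, whose protein resembles a tRNA synthetase, read 23.2, 23.6, 21 and 19.6 CPM against 13.9, 19.3, 17.6 and 15.6 CPM (log2 fold change 0.40, SE 0.13, adjusted p = 0.0724 by edgeR). DESeq2 put its adjusted p at 0.0356, which made it the additional gene in the DESeq2 count. Mrpl41, named because it completes this count and chosen after its values were seen, read 13.3, 16.0, 11.9 and 13.5 CPM against 10.4, 8.66, 11.2 and 10.9 CPM, with a log2 fold change of 0.41 and an adjusted p of 0.129 by edgeR. Neither reached the threshold in the main comparison.

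Mrpl18, of the large subunit's central protuberance, was the member with the largest negative value. It read 15.5, 16.8, 13.6 and 12.1 CPM in Tim-4+ and 18.2, 18.7, 18.3 and 20.2 CPM in Tim-4- TAMs. Each Tim-4+ library was below each Tim-4- library, and the log2 fold change of -0.39 (SE 0.14) had an adjusted p of 0.0999 by edgeR. Of its exonic bases 10.1% are shared with Tcp1 on the opposite strand.

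In the large subunit, Mrpl12, Mrpl10 and Mrpl11 belong to the stalk that recruits translation factors, and none of the 3 passed the test. Mrpl12 read 38.9, 48.7, 27.1 and 28.7 CPM in Tim-4+ and 25.9, 31.1, 22.4 and 27.6 CPM in Tim-4- TAMs, with within-pair log2 ratios of 0.59, 0.65, 0.28 and 0.06, so the pairs disagreed on the size (log2 fold change 0.39, adjusted p = 0.0764 by edgeR). Mrpl10, which anchors Mrpl12, was at 29.2 ± 2.94 CPM in the Tim-4+ and 30.4 ± 4.61 CPM in the Tim-4- subset, with a 95% interval of the log2 fold change from -0.34 to 0.23. Mrpl11, at the base of the stalk, read 20.3, 22.8, 18.0 and 18.8 CPM against 18.1, 22.3, 21.1 and 25.2 CPM, with an interval from -0.43 to 0.20.

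Among other proteins at working sites of the large subunit, Mrpl2, Mrpl45 and Mrpl58 were close to level. Mrpl2, at the peptidyl transferase center, was at 23.2 ± 1.76 CPM in Tim-4+ and 23.7 ± 3.42 CPM in Tim-4- TAMs, with an interval of the log2 fold change from -0.30 to 0.25. Mrpl45, near the tunnel exit where the ribosome meets the inner membrane, was at 18.6 ± 1.44 and 19.6 ± 1.22 CPM (interval -0.34 to 0.19). Mrpl58, a hydrolase that rescues stalled ribosomes and also sits in the large subunit, was at 17.4 ± 1.74 and 16.9 ± 2.47 CPM (interval -0.24 to 0.33). For each of the 3 the interval stayed within 1.5-fold. Mrpl4, which lines the exit tunnel, was at 51.7 ± 4.60 and 41.6 ± 5.71 CPM, higher in Tim-4+ TAMs in 4 of 4 pairs. Its interval ran from 0.04 to 0.60, with an adjusted p of 0.102 by edgeR.

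Of the 23 Mrpl genes below 0, 18 were numbered among those of bacterial descent, a group of 28 of the 48 tested (described with the split by number). Mrpl34 was at 12.2 ± 2.43 CPM in Tim-4+ and 15.4 ± 4.37 CPM in Tim-4- TAMs (log2 fold change -0.32, adjusted p = 0.186 by edgeR). Mrpl28, Mrpl9 and Mrpl33 had log2 fold changes of -0.26, -0.26 and -0.21, with adjusted p of 0.166, 0.233 and 0.251. None of these passed the test.

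In the small subunit, Mrps12, which forms part of the decoding center, was at 21.2 ± 3.81 CPM in Tim-4+ and 19.0 ± 3.27 CPM in Tim-4- TAMs, with an interval of the log2 fold change from -0.14 to 0.44. Its start lies 172 bases from that of Sars2, the mitochondrial seryl-tRNA synthetase, on the opposite strand. Sars2 had 13.7 CPM against 12.5 CPM and a log2 fold change of 0.14 (adjusted p = 0.520 by edgeR) beside 0.15 for Mrps12. Not every such neighbor was this close to its member, and Helq had -0.82 beside -0.08 for Mrps18c. Mrps21, a small protein of bacterial descent, read 34.7, 32.2, 31.3 and 34.4 CPM in Tim-4+ and 23.8, 20.5, 24.8 and 33.3 CPM in Tim-4- TAMs (log2 fold change 0.39, adjusted p = 0.0742 by edgeR). The Tim-4- library of pair 779 alone reached into the Tim-4+ range. Mrps25 had a log2 fold change of 0.27 and an adjusted p of 0.233, but 69.8% of its exonic bases are also exonic in Nr2c2 on the opposite strand. Whether the counting used strand is unknown. Without strand, reads in the shared bases would be set aside as ambiguous and lost from Mrps25, which was not tested.

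Mrps22, a protein particular to mitochondrial ribosomes, was at 7.72 ± 1.88 CPM in Tim-4+ and 8.16 ± 1.47 CPM in Tim-4- TAMs, with an interval from -0.51 to 0.32. Mrps14, Mrps17, Mrps11 and Mrps26 had log2 fold changes of -0.28, -0.15, -0.14 and -0.11, with adjusted p of 0.248, 0.395, 0.594 and 0.622 by edgeR. None of the 12 Mrps genes below 0 had an unadjusted p under 0.05.

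Several symbols do not follow the structure. Mrps18a and Mrps30 are components of the large subunit despite their names, and Mrps36 is now known as a component of the 2-oxoglutarate dehydrogenase complex. Mrps18a read 36.1, 42.2, 31.1 and 35.4 CPM in Tim-4+ and 28.7, 28.7, 28.6 and 32.5 CPM in Tim-4- TAMs (log2 fold change 0.28, adjusted p = 0.134 by edgeR). Mrps30 was at 16.5 ± 2.50 and 17.3 ± 1.66 CPM, and Mrps36 at 11.2 ± 0.289 and 10.4 ± 2.28 CPM. With these genes placed by structure, the large subunit still had 2 genes higher and 0 lower of 50, with a median log2 fold change of 0.00, and the small subunit 2 and 0 of 24, with a median of 0.06.

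A split by the numbers in the symbols, taking Mrpl genes up to 36 and Mrps genes up to 21 as relatives of bacterial proteins, showed no shift common to both subunits. It is approximate, since Mrpl47 and Mrps24 also have bacterial relatives. The median log2 fold change was -0.08 over 28 Mrpl genes of bacterial descent and 0.06 over 20 mitochondria-specific ones, and 0.11 over 15 and 0.02 over 12 Mrps genes. Above 0 were 10 of the 28 and 15 of the 20 Mrpl genes, and 9 of the 15 and 6 of the 12 Mrps genes. Both called Mrpl genes fell in the mitochondria-specific group and both called Mrps genes in the bacterial one. The other 5 proteins of the mitochondrial ribosome, which carry other symbols, had a median of -0.04. Dap3, a GTP-binding protein of the small subunit, was at 36.6 ± 3.16 CPM in Tim-4+ and 37.9 ± 4.22 CPM in Tim-4- TAMs, and the log2 fold changes of Ptcd3, Chchd1, Aurkaip1 and Gadd45gip1 were -0.12, 0.14, 0.12 and -0.04. None of the 5 was called by edgeR or DESeq2, and none had an unadjusted p under 0.05 in edgeR.

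Levels per length were also alike in both subsets (RPKM, the TMM-scaled CPM divided by the exonic length in kilobases). The median over Mrpl genes was 8.80 RPKM in Tim-4+ and 8.40 RPKM in Tim-4- TAMs, and over Mrps genes 6.00 and 5.98 RPKM. Levels of the tested members ranged from 0.50 to 27.7 RPKM in Mrpl, a 55.3-fold range, and from 1.39 to 39.7 RPKM in Mrps, a 28.5-fold range. The SD of the log2 level was 1.23 between Mrpl genes and 1.2 between Mrps genes, and the median SD of a gene's log2 level between the 8 libraries was 0.25 and 0.23. The spread between genes partly reflects annotation, since the exonic length joins all isoforms and some members have long untranslated exons.

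The highest levels per length were those of Mrps21, at 39.7 RPKM, and Mrpl52, at 27.7 RPKM, the means of all 8 libraries. Mrpl54 followed at 26.5 RPKM and Mrps15 at 24.7 RPKM. Within libraries, Mrps21 was above Mrpl54 and Mrps15 in 8 of 8 and above Mrpl52 in 7 of 8. Mrpl52 was above Mrpl54 in 4 of 8 and above Mrps15 in 6 of 8, and Mrpl54 was above Mrps15 in 4 of 8, so these 3 kept no common order. At the lower end, Mrpl23 was at 0.50 RPKM and Mrpl47 at 1.29 RPKM, with Mrps35 at 1.39 RPKM and Mrps34 at 1.85 RPKM. Mrpl23 has a processed pseudogene, Mrpl23-ps1, that was itself listed with 249 to 408 counts per library, and reads shared between the copies could be lost from the gene. Mrps34 shares exonic bases with Nme3 on its own strand (37.0%) and Mapk8ip3 on the other (63.4%).

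**Figure D3:**
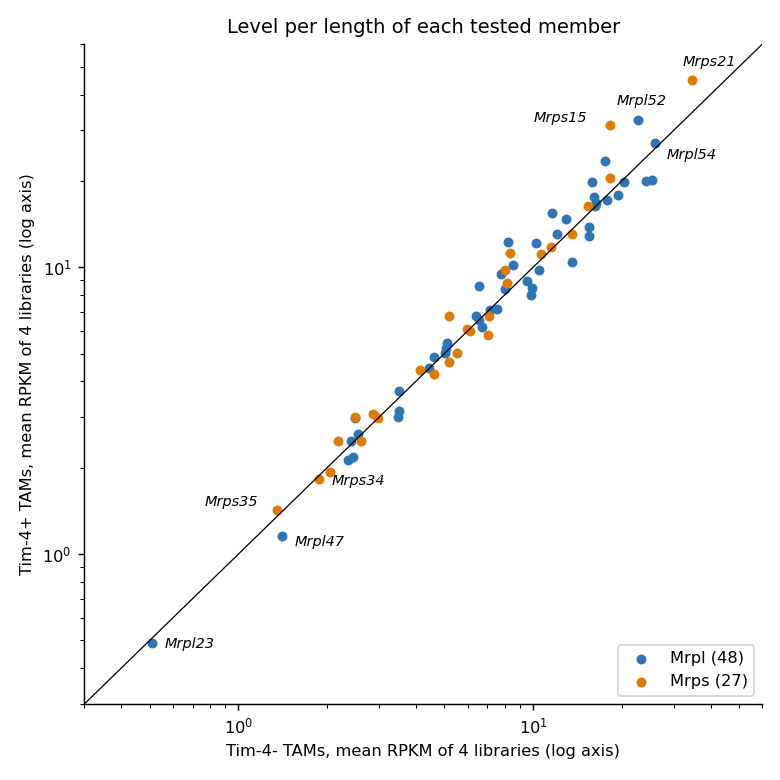
Mean RPKM of each tested member over 4 Tim-4+ libraries (vertical, log axis) against 4 Tim-4- libraries (horizontal, log axis), for 48 Mrpl and 27 Mrps genes, with the line of equal level. The points follow the line from Mrpl23 at 0.50 RPKM to Mrps21 at 39.7 RPKM (means of all 8 libraries), with Mrps15 and Mrpl52 above it.

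The members that did not pass the filter were near 0 in all libraries. Mrpl53 had 0 to 9 counts, Mrps10 0 to 1 and Mrps23 0 to 3 counts per library, beside at least 98 counts in each library for every tested member. A count of 0 allows at most 0.0381 to 0.0630 CPM in these libraries (3 counts, counting error only). Mrpl53 shares 88.0% of its exonic bases with Gm42688 on the same strand, and reads in both genes are set aside by such counting as ambiguous. Mrps10 and Mrps23 share no exonic base with another annotated gene. What keeps their counts near 0 was not tested, and no statement on their expression is made.

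Of the 78 members, 33 share an exonic base with another gene, 10 of them at least 20% of their exonic length. The 45 others, of which 43 were tested, had a median log2 fold change of 0.06 with the same 4 genes called higher and 0 lower by edgeR (0 lower at an unadjusted p under 0.05). Head-to-head neighbors were also frequent. A protein-coding gene on the opposite strand began within 1000 bases upstream of 18 of 78 members (23.1%), beside 6.76% of the 21998 protein-coding genes listed. Of 17 such neighbors tested, 0 were called higher and 1, Helq beside Mrps18c, lower by edgeR (log2 fold change -0.82, adjusted p = 0.0458), while Mrps18c had a log2 fold change of -0.08.

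The pairs did not move the members in 1 direction. Within pairs 793, 784, 783 and 779 the median log2 ratio of Tim-4+ to Tim-4- was 0.12, 0.16, -0.12 and -0.15 over Mrpl genes and 0.11, 0.32, -0.04 and -0.23 over Mrps genes. Pairs 793 and 784 thus lay above 0 and pairs 783 and 779 below it in both subunits. The SD of the 4 medians, 0.16 and 0.23, exceeded the fitted medians of 0.00 and 0.06. Summed over genes, Mrpl levels were 1052 ± 121 CPM in Tim-4+ and 1013 ± 78.2 CPM in Tim-4- TAMs, and Mrps levels 512 ± 66.9 and 465 ± 42.3 CPM. The summed levels overlapped between the groups in both cases.

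**Figure D4:**
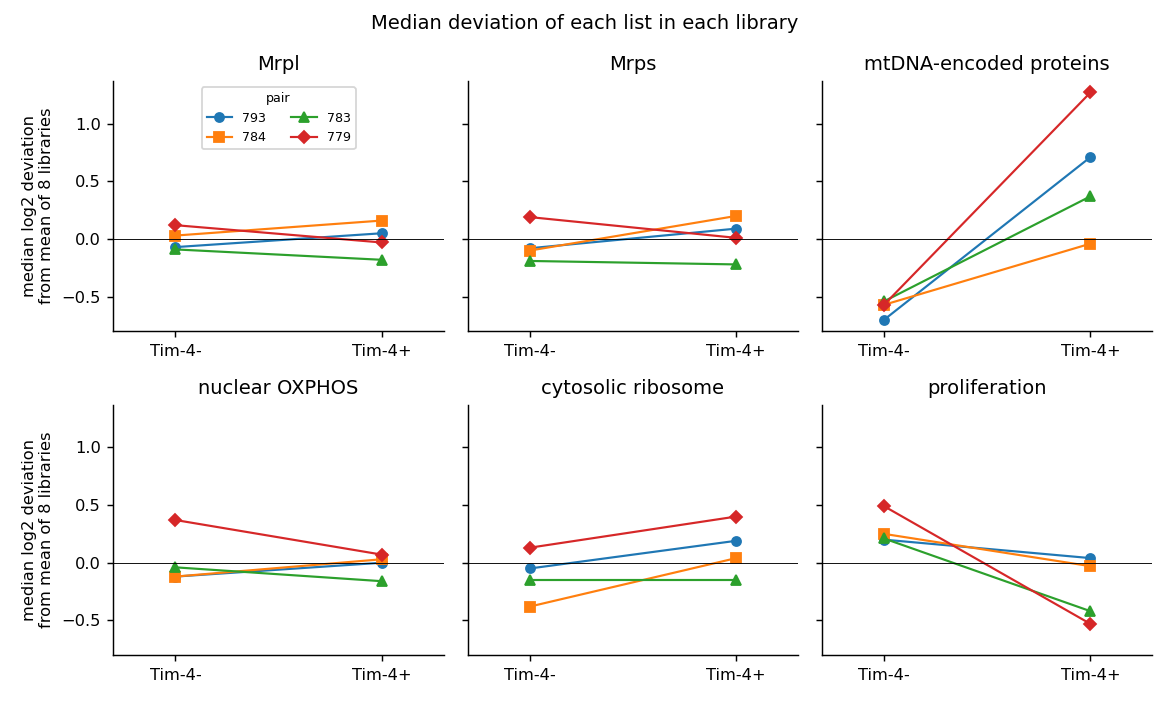
Median deviation of each list's genes from their own mean over 8 libraries (vertical, log2 scale) in each library, with lines joining the Tim-4- and Tim-4+ libraries of a pair. Lines for Mrpl and Mrps rise in pairs 793 and 784 and fall in pairs 783 and 779, lines for mtDNA-encoded proteins rise and lines for proliferation genes fall in all 4 pairs.

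The transcripts that the mitochondrial ribosome reads were higher in Tim-4+ TAMs. Of the 13 protein-coding genes of mtDNA, edgeR called 11 higher (84.6%, beside 8.97% of all genes) and 0 lower (beside 8.43%). At an unadjusted p under 0.05 edgeR gave 0 lower, and DESeq2 called 0 lower. The fold change was above 0 for 13 of 13, with a median log2 fold change of 1.17. With total counts as the scale 9 were called, with a median of 0.81. The genes not called were mt-Nd4l, at 0.710 CPM in Tim-4+ TAMs, and mt-Co3. The smallest adjusted p was that of mt-Nd6, a complex I subunit, at 530 ± 114 CPM in Tim-4+ and 234 ± 24.2 CPM in Tim-4- TAMs (log2 fold change 1.16, SE 0.15, adjusted p = 0.00654). Within pairs 793, 784, 783 and 779 the median over these genes was 1.29, 0.46, 0.90 and 1.71. The count was 1 without pair 793, 784 or 779 and 1 without the pair block, with medians of 0.98 to 1.37 over the settings that left out a pair. The mitochondrial rRNAs mt-Rnr1 and mt-Rnr2 rose by 0.73 (SE 0.14, adjusted p = 0.0160 by edgeR) and 0.78 (SE 0.19, adjusted p = 0.0308), but without pair 793, 784 or 779, or without the pair block, neither was called. They were measured after rRNA removal, so their values are what the removal left. The mtDNA and nuclear lists were set side by side, with no test of the difference between them.

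The other nuclear genes of mitochondrial gene expression are given by role. Of 18 translation factors and related proteins tested, 0 were called in either direction by edgeR (0 at an unadjusted p under 0.05 and 0 by DESeq2), with a median of -0.02. Lrpprc, which stabilizes mitochondrial mRNA, had a log2 fold change of -0.21 (adjusted p = 0.201) and Oxa1l, which inserts new proteins into the inner membrane, 0.17 (adjusted p = 0.250). Of 17 mitochondrial tRNA synthetases none was called by edgeR, with 1 higher and 3 lower at an unadjusted p under 0.05, 0 higher and 2 lower by DESeq2 and a median of -0.11. Mars2 had a log2 fold change of -0.88 (adjusted p = 0.0944) and Rars2 0.32 (adjusted p = 0.104).

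Of 26 ribosome assembly genes, edgeR called 1 higher (3.85%, beside 8.97% of all genes) and 2 lower (7.69%, beside 8.43%), with a median of -0.10. Without pair 793, 784 or 779, or without the pair block, 0 were called in either direction, and without the count filter 0 were called higher. Ddx28, an RNA helicase of large subunit assembly, was at 22.8 ± 4.92 CPM in Tim-4+ and 16.4 ± 2.14 CPM in Tim-4- TAMs (log2 fold change 0.45, adjusted p = 0.0445). Nsun4 and Mrm1, enzymes that methylate mitochondrial rRNA, were lower. Nsun4 was at 9.11 ± 0.964 and 13.7 ± 1.07 CPM (log2 fold change -0.59, adjusted p = 0.0263). Mrm1 was at 6.73 ± 1.12 and 10.2 ± 1.84 CPM (log2 fold change -0.59, adjusted p = 0.0345). Both lay below their Tim-4- partner in 4 of 4 pairs.

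Of 19 genes for mtDNA transcription and replication, 0 were called higher and 2 lower by edgeR (0 higher at an unadjusted p under 0.05 and 0 by DESeq2), with a median of 0.05. The 2 are 10.5% of the list, beside 8.43% of all genes, and 0 were called lower without pair 793, 784 or 779 or without the pair block. Tfam, which packages mtDNA and starts its transcription, was at 11.8 ± 0.925 CPM in Tim-4+ and 18.4 ± 2.69 CPM in Tim-4- TAMs (log2 fold change -0.63, adjusted p = 0.0231). Twnk, the mtDNA helicase, was at 8.74 ± 1.17 and 13.4 ± 1.71 CPM (log2 fold change -0.62, adjusted p = 0.0349). It shares exonic bases with the member Mrpl43 on the opposite strand, 33.4% of the exonic length of Mrpl43, which had a log2 fold change of 0.01. Top1mt, the mitochondrial topoisomerase, had the smallest adjusted p on the higher side (log2 fold change 0.42, adjusted p = 0.160).

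**Figure D5:**
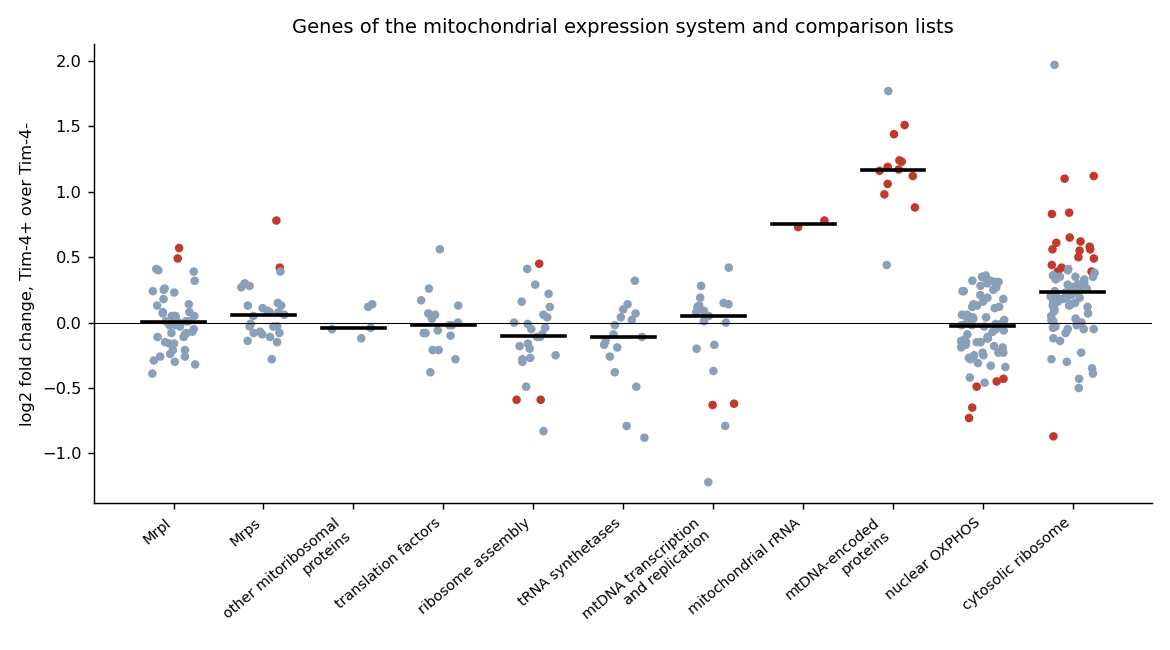
Log2 fold change, Tim-4+ over Tim-4- TAMs, of each tested gene (points, with horizontal jitter) in the 2 groups of members and 9 lists, with red for an adjusted p under 0.05 and a black bar for the median. The members sit around 0 (medians 0.00 and 0.06), the mtDNA-encoded proteins around 1.17, and the nuclear lists of mitochondrial function between -0.11 and 0.05.

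Broader lists are given for scale. Of 72 nuclear OXPHOS genes tested, edgeR called 0 higher (beside 8.97% of all genes) and 5 lower (6.94%, beside 8.43%). At an unadjusted p under 0.05 edgeR gave 11 higher and 8 lower, and DESeq2 called 2 higher and 6 lower. The median was -0.03, and the 95% interval stayed within 1.5-fold for 49 of these genes. Without pair 793, 784 or 779, or without the pair block, 0 were called lower, and without pair 783 there were 2. Of 82 cytosolic ribosomal protein genes, 17 were called higher (20.7%, beside 8.97% of all genes) and 1 lower (1.22%, beside 8.43%), with a median of 0.23. This median was -0.12 with total counts as the scale, under which the median of all genes was -0.36. Without pairs 793, 784 and 779 in turn, 4, 2 and 3 were called higher, and without the pair block 2 were. Of 26 proliferation genes, 0 were called higher and 13 lower by edgeR (0 higher at an unadjusted p under 0.05 and 0 by DESeq2), with a median of -0.60. Without pair 784 or without the pair block the proliferation count was 0, and without pair 779 it was 1. The counts of all genes fell in these settings too. Without pairs 793, 784 and 779 in turn, 719, 78 and 445 of all genes were called higher and 470, 54 and 328 lower. Without the pair block 147 were higher and 85 lower.

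The scale affects what level means here. With library totals in place of TMM factors, the median over all tested genes was -0.36 (log2 fold change), beside -0.35 over Mrpl and -0.30 over Mrps genes. Relative to all genes the members were thus near 0 on both scales. On the total count scale edgeR called 0 of 48 Mrpl genes higher and 14 lower, and 1 of 27 Mrps genes higher and 4 lower. Of all 16861 tested genes, 789 were higher and 4903 lower on this scale. The 4 genes called higher by TMM kept a log2 fold change above 0 on that scale, at 0.42 for Mrps15, 0.22 for Mrpl42, 0.13 for Mrpl52 and 0.06 for Mrps2, and edgeR called Mrps15 alone.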

How the data were processed

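RNA was measured in 8 libraries, each sequenced in 2 lanes. The authors deposited raw gene counts per lane, whole numbers without normalization. RNA was depleted of rRNA and libraries were stranded and read as 50-cycle paired ends. The labels name FastQC 0.11.3, TopHat2 2.0.13, Cufflinks and Cuffdiff 2.2.1 with GRCm38 (mm10). The methods print a human build, whereas the identifiers are mouse. The tool that made the counts is not given in the sources used here, nor whether it used strand.

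The lanes of a library were summed into 1 replicate (53527928 to 69594245 counts per library). For pair 793, lane 1 of the Tim-4- TAMs lists symbols in place of identifiers and was joined by order (96.8% of symbols, and all 78 members, matched). Names, lengths and positions are from GENCODE M21, in which 98.6% of identifiers were found. A gene was tested if 4 or more of the 8 libraries held 10 or more counts, with edgeR 4.0.16 (R 4.3.3) by the quasi-likelihood test (robust, TMM factors, pair number as a block, Benjamini-Hochberg), without a minimum fold change. P-values weigh the mean difference against the spread between these samples that is left after the pair block. SE is the log2 fold change divided by the square root of F, and intervals are 95%. Pairs follow the label numbers, and this was checked: the deviations of same-numbered libraries from their group means correlated at 0.471, 0.498, 0.408 and 0.277 in pairs 793, 784, 783 and 779. The code was tested on simulated data.

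The members and lists were chosen with earlier results of these data known. Genes named by rule are, for Mrpl and Mrps each, the 5 with the smallest adjusted p in each direction, the 2 highest and 2 lowest tested genes by RPKM, 12 members of known role, and members that failed the filter. Mrpl41, Mrpl43, Mrpl57 and Mrps18c fall outside this rule and were picked for the passages that give their values. In other lists of mitochondrial gene expression the gene with the smallest adjusted p in each direction is named. Alternatives were DESeq2 1.42.0 (test or size factors), total counts, other filters (none, or 50 counts), lane 2 only, a loess correction for length, no pair block, leaving out each pair, and subunits by structure. Lymphocyte, granulocyte, dendritic and erythroid markers were also counted. Of 6 B cell, 2 T and NK cell, 3 granulocyte, 5 dendritic and 3 erythroid genes tested, edgeR called 0, 0, 0, 1 and 1 higher and 1, 0, 0, 1 and 0 lower.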

Additional observations from a re-analysis of the deposited data

Results flagged for a closer look

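In 70 groups of 4 libraries (the 33 tested members named by rule and the summed Mrpl and Mrps levels, in each subset), Dixon's test picked out 5 single libraries far from the other 3. Chance alone picks about 1 in 20 groups. For Mrpl52, the Tim-4+ library of pair 784 was at 55.2 CPM, with the others at 29.1 to 31.3 CPM. For Mrps15, the Tim-4+ library of pair 783 was at 41.6 CPM, with the others at 55.5 to 57.5 CPM. The other 3 were all in the Tim-4- library of pair 779, which was at 13.7 CPM for Mrps11 (others 11.3 to 11.5), 32.5 CPM for Mrps18a (others 28.6 to 28.7) and 13.8 CPM for Mrps36 (others 8.97 to 9.76). That library also had the highest summed level of epithelial and mesothelial markers, at 1977 CPM (the other Tim-4- libraries 437 to 1298 CPM), and fewer reads set aside as not unique in lane 2 (3153643) than in lane 1 (10020232). The part of these in the values was not tested.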

How the results depend on the processing

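Without the replicate block for the pairs, edgeR called 0 Mrpl and 0 Mrps genes in either direction (147 higher and 85 lower of all genes, beside 1512 and 1421 with it), and the adjusted p of Mrps15 was 0.0540. With total counts the counts were 0 higher and 14 lower of 48 Mrpl genes and 1 higher and 4 lower of 27 Mrps genes. The medians were -0.35 and -0.30. The split for all 16861 tested genes was 789 higher and 4903 lower. Mrpl genes called higher were 4 with the length correction with the replicate block, which moved the median of all genes to 0.09 and their split to 2268 higher and 1278 lower, and 0 to 2 with 1 pair left out. Mrps genes called higher were 1 with no count filter and 0 to 1 with 1 pair left out, and 3 with the length correction. Leaving out a pair gave 0 lower genes in both subunits and medians of -0.07 to 0.03 (Mrpl) and -0.05 to 0.13 (Mrps). Of the 12 alternatives tried on single genes, Mrps15 was called in 10, Mrpl42 in 8, Mrpl52 in 6 and Mrps2 in 5, with log2 fold changes above 0 in all. No member named by rule and called under any setting had the opposite sign under TMM with the block. Without pair 784, 78 of all genes were called higher and 54 lower. With 4 pairs the SE limits what can be seen: the called members had an SE of 0.10 to 0.13.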
